A study of Homo sapiens with 12 samples.

Results

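The PI3K, AKT and mTOR pathway nodes PIK3CA, PIK3CB, PIK3R1, AKT1, AKT2, TSC1, TSC2, MTOR and RPS6KB1 were followed by every probe set whose array annotation names one of them. The rule found 16 probe sets, each naming 1 gene, among 22215 that are not array controls. They represent 8 of the 9 genes, of 11963 genes named alone by a probe set, and PIK3CA was not analysed here. Of the 16 probe sets, 9 passed the filter on low signal and were tested, and these 9 cover 7 genes, with AKT2 represented only below the filter.

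The samples were 12 Affymetrix U133A 2.0 arrays of total RNA from K562, an established cell line of chronic myelogenous leukemia that carries the BCR-ABL1 fusion kinase. Cells had been kept for 24 hours with 0.05 µM nilotinib (AMN107; 4 arrays), 0.5 µM imatinib (STI571; 4 arrays) or DMSO, the solvent control (4 arrays). Both drugs inhibit the BCR-ABL1 kinase, and their doses differ. Nothing in the labels tells whether the 4 arrays of a group stem from independent cultures, and the p-values then rest on array-to-array spread that may be technical.

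Class I PI3K is a pair of a catalytic and a regulatory subunit that phosphorylates a membrane lipid, which recruits the kinase AKT to be activated. AKT phosphorylates and restrains the TSC1-TSC2 complex, which otherwise switches off the small GTPase RHEB, the activator of the mTOR kinase complex mTORC1. In cells that carry BCR-ABL1 the fusion kinase engages PI3K through adaptors such as GAB2. Most of this signalling runs through phosphorylation, which these arrays do not measure, and the values below are mRNA signals.

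PIK3CB and PIK3R1 encode a catalytic and a regulatory subunit that pair in one enzyme, and a probe set of each gave the widest changes among the 9 probe sets, in opposite directions. The 250 bases before the first listed start of each gene are therefore shown, from RefSeq on GRCh38.p14, at chr3:138834929-138835178 on the minus strand for PIK3CB and at chr5:68215506-68215755 on the plus strand for PIK3R1. Both are written 5′ to 3′, and capitals would mark a match to one of the motifs searched.
PIK3CB: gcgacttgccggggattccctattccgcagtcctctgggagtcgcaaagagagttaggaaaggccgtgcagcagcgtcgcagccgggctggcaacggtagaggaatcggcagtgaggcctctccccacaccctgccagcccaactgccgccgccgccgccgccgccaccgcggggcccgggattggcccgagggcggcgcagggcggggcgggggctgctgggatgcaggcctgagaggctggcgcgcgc
PIK3R1: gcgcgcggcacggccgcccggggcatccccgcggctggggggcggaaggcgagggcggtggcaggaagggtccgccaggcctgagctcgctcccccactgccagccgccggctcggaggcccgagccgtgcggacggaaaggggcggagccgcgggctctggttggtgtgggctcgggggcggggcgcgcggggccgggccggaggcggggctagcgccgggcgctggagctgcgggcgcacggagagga
The motifs searched on both strands were GTAAACA (FOXO factors), TTCNNNGAA (STAT factors), CACGTG (the E-box) and TGATGNAA (the ATF4 composite site). Neither window held any of these letters, and of 35116 RefSeq windows of this length 2.98%, 6.57%, 6.34% and 3.14% held them, in that order. The RefSeq table had entries for all 8 genes, with 2 starts for PIK3CB and 4 for PIK3R1. The third listed PIK3R1 window, at chr5:68290414-68290663, held TGATGNAA once. The RPS6KB1 window held TTCNNNGAA once, and the first TSC2 window held CACGTG and TGATGNAA in overlapping bases. The TSC1 window held none of the 4 motifs.

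The values are linear MAS5 signals scaled by the authors, with a mean of 500 on every array between its 2% tails. Over all probe sets the median signal was 119 ± 2.15 on the DMSO arrays, 142 ± 8.72 on the imatinib arrays and 179 ± 12.1 on the nilotinib arrays (SD, n = 4 each), without overlap. Scaling therefore bears on direction: centring each array on its median moved the median log2 fold change over all tested probe sets from 0.10 to -0.13 for imatinib and from 0.17 to -0.35 for nilotinib. The ratio of the 3′ to the 5′ actin control lay above 3.5 on nilotinib arrays 1 and 2 and imatinib arrays 5 and 6 (3.72 to 5.49) and between 1.82 and 3.34 on the other 8 arrays. A control probe set for 28S ribosomal RNA gave 1509 ± 261 with DMSO, 4845 ± 349 with imatinib and 4959 ± 296 with nilotinib. The part of these array differences in the results was not tested, other than by the alternatives given beside them. In bulk RNA, fewer cells of a kind and less RNA per cell cannot be told apart.

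All 10 K562 and erythroid marker genes measured by a probe set of their own, of 12 listed, passed the filter. Their signals summed to 43227 to 48415 on DMSO arrays, to 75714 to 83835 on imatinib arrays and to 84589 to 93165 on nilotinib arrays, and the part of this shift in the results below was not tested. The sums rest mainly on HBZ, HBE1 and TFRC, with DMSO means of 10394, 10694 and 16817. GATA1 did not pass the test with either drug (log2 fold changes of 0.07 and 0.22, adjusted p = 0.750 and 0.242, limma). SPN did not pass with imatinib (adjusted p = 0.545, limma) and rose with nilotinib, and the other genes of this list rose with both drugs. Of the other lists, 5 of 8 lymphocyte, 4 of 9 granulocyte and monocyte, 3 of 7 megakaryocyte and 2 of 6 fibroblast markers passed. Their summed signals, for DMSO, imatinib and nilotinib in turn, were 2333 to 2433, 1762 to 2057 and 2186 to 2585 for lymphocyte markers and 3086 to 3204, 2417 to 3091 and 2200 to 3112 for granulocyte and monocyte markers. They were 312 to 620, 401 to 673 and 573 to 1105 for megakaryocyte markers and 320 to 573, 367 to 674 and 746 to 810 for fibroblast markers. The brightest of these markers with DMSO were PTPRC at a mean of 1733 and CD3D at 282 (lymphocyte), LYZ at 2940 (granulocyte and monocyte), GP1BA at 116 (megakaryocyte) and COL1A1 at 250 (fibroblast). Below the filter were, among others, CD3G at 10.9, CD14 at 6.16, MPO at 38.2, PPBP at 40.9 and LUM at 0.577. CSF3R, a granulocyte receptor, rose to a mean of 130 with imatinib and 192 with nilotinib (adjusted p = 3.48e-04 and 2.33e-05, limma). Its mean with DMSO lay below the filter level of about 80.6, so that CSF3R passed the filter only through its treated arrays. LYZ fell with both drugs (log2 fold changes of -0.35 and -0.57, adjusted p = 0.0125 and 1.52e-04, limma). CEBPE and FCGR3B rose with nilotinib (adjusted p = 0.00470 and 0.00610, limma) and did not pass with imatinib (adjusted p = 0.0622 and 0.117, limma). Their means with DMSO, 56.8 and 50.8, also lay below the filter level, so that both passed the filter only through their treated arrays. In the other lists CD3D and PTPRC fell with imatinib (-1.08 and -0.34, adjusted p = 0.00392 and 0.00194, limma) and did not pass with nilotinib. ITGB3, GP1BA, CD2 and DCN rose with nilotinib (adjusted p = 6.72e-04, 0.00467, 0.00884 and 0.0130, limma) and did not pass with imatinib. With DMSO, ITGB3 at 65.8 and CD2 at 63.6 lay below the filter level and passed it only through treated arrays. The part of these markers in the results was not tested.

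Against DMSO, PIK3CB fell and 1 probe set of PIK3R1 and that of TSC1 rose with both drugs, and 1 probe set of RPS6KB1 rose with nilotinib. With imatinib 2 of the 9 probe sets rose, 1 fell and 6 did not pass the test, while 35.5% of all 13329 tested probe sets were called (20.0% higher, 15.5% lower). In 2 of the 9 the treated arrays did not overlap the DMSO arrays, beside 36.5% of all. With nilotinib 3 rose, 1 fell and 5 did not pass, beside a background of 55.5% called (33.9% higher, 21.5% lower), and 3 of the 9 did not overlap, beside 48.5%. Read against these shares, 3 of 9 and 4 of 9 lie near the background. The median log2 fold change of the 9 was 0.16 with imatinib, beside 0.10 over all tested probe sets, and 0.40 with nilotinib, beside 0.17. These counts depend on the scaling: with median centring 1 was higher and 2 lower with imatinib, 2 were higher and 3 lower with nilotinib, and the medians of the 9 were -0.06 and -0.12. Over all 13329 tested probe sets that centring gave 1264 higher and 3468 lower with imatinib, and 1328 higher and 6208 lower with nilotinib, with medians of -0.13 and -0.35. Calls are at an adjusted p under 0.05 in limma with Benjamini-Hochberg adjustment over all tested probe sets, log2 fold changes are on the scale of log2(signal + 16), which understates changes of dim probe sets, and errors are the SE of the fit. The 2 comparisons share the 4 DMSO arrays, so their values are set side by side and not taken as independent.

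**Figure D1:**
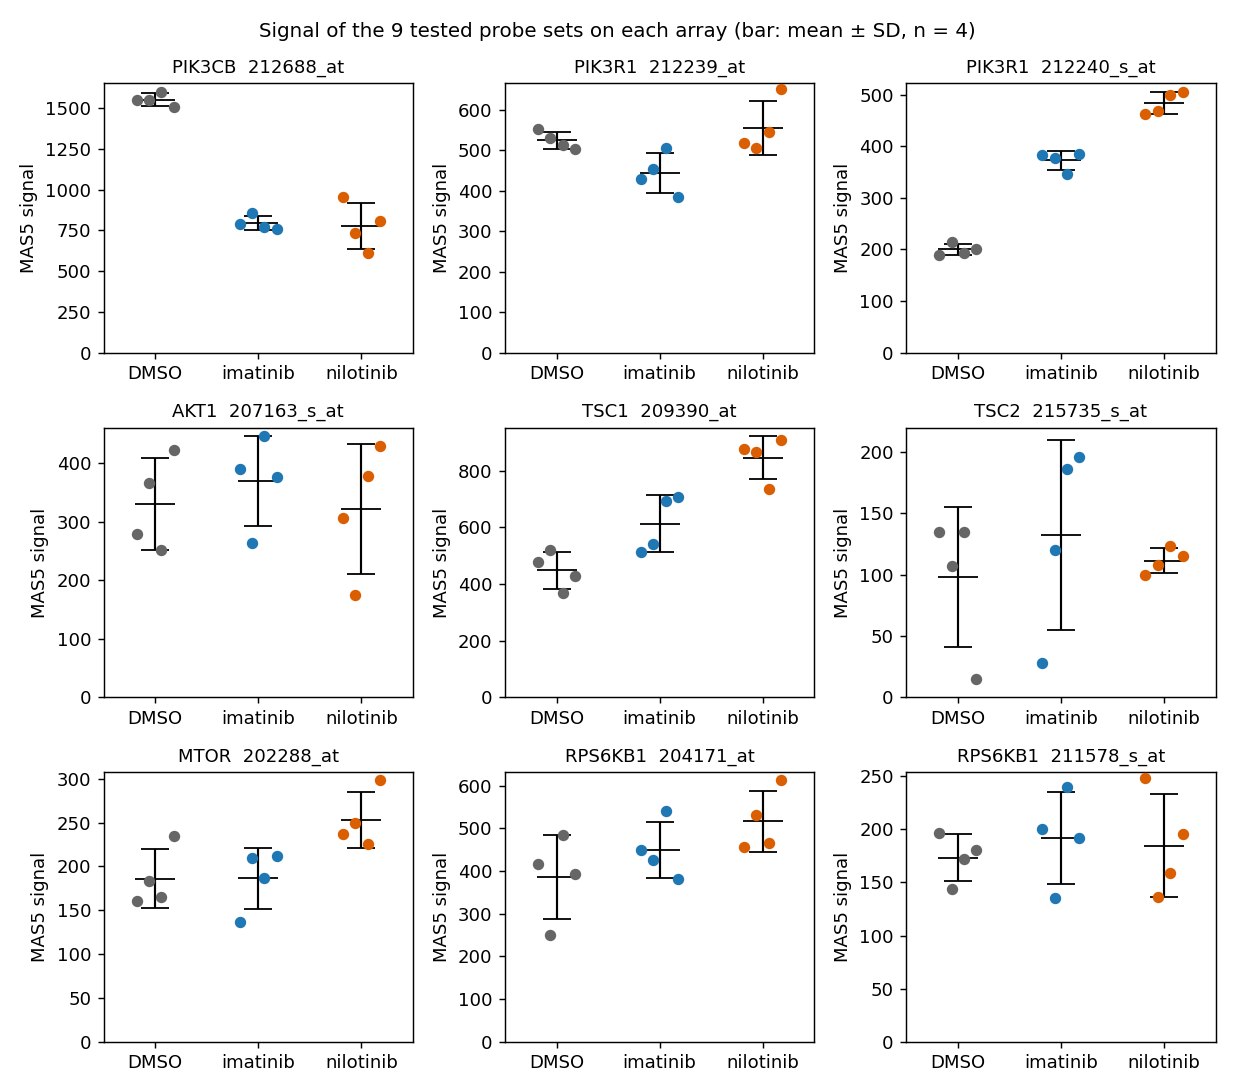
Deposited signal of the 9 tested probe sets on each of the 12 arrays, by group, with points for arrays and bars for the group mean and SD (n = 4). The DMSO arrays of PIK3CB (1504 to 1602) sit above all 8 treated arrays, those of PIK3R1 212240_s_at (190 to 215) sit below all 8, and the TSC1 groups lie in the order DMSO, imatinib, nilotinib by mean.

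PIK3CB, a catalytic subunit of class I PI3K, was lower with both drugs on its tested probe set. Probe set 212688_at gave signals of 1547, 1551, 1602 and 1504 on the DMSO arrays, 791, 854, 773 and 756 on the imatinib arrays, and 953, 735, 612 and 807 on the nilotinib arrays. The group means were 1551 ± 40.1, 794 ± 42.7 and 777 ± 143 (SD, n = 4). All 8 treated arrays lay below all 4 DMSO arrays, and the nilotinib arrays were the most spread. The log2 fold change was -0.95 ± 0.11 with imatinib (95% interval -1.18 to -0.73; adjusted p = 1.59e-06, limma) and -1.0 ± 0.11 with nilotinib (95% interval -1.23 to -0.77; adjusted p = 5.02e-07, limma). Of all tested probe sets, 3.05% fell at least as far with imatinib and 5.24% with nilotinib. The call held under all 24 alternatives for each drug, from -1.18 to -0.91 and from -1.52 to -0.89. The second PIK3CB probe set, 217620_s_at, lay below the filter, with means of 48.3 ± 13.4, 88.5 ± 24.1 and 86.2 ± 57.6 for DMSO, imatinib and nilotinib. Its values ran the other way, with every imatinib array above every DMSO array, and without the filter it was not called (0.70 ± 0.43 and 0.48 ± 0.43; adjusted p = 0.299 and 0.373, limma).

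PIK3R1, the main regulatory subunit that stabilises and restrains the catalytic subunits, gave different results by probe set. Probe set 212240_s_at, of a kind that can match several transcripts, gave 190, 215, 194 and 201 with DMSO, 383, 378, 346 and 386 with imatinib, and 463, 468, 499 and 506 with nilotinib. Its groups did not overlap with each other and rose in that order by mean. The log2 fold change was 0.85 ± 0.13 with imatinib (adjusted p = 3.17e-05, limma), a 1.80-fold rise, and 1.21 ± 0.13 with nilotinib (adjusted p = 2.67e-07, limma), a 2.31-fold rise. Among all tested probe sets 7.15% rose at least as far with imatinib and 6.83% with nilotinib, and the call held under all 23 alternatives for each drug (0.62 to 0.90 and 0.69 to 1.27).

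The brighter PIK3R1 probe set, 212239_at, gave 551, 529, 512 and 503 with DMSO, 429, 453, 506 and 385 with imatinib, and 518, 504, 544 and 651 with nilotinib. The imatinib arrays lay mostly below the DMSO arrays, with 506 inside their range, and the nilotinib arrays overlapped them. Its log2 fold changes of -0.24 ± 0.12 (95% interval -0.49 to 0.01; adjusted p = 0.129, limma) and 0.07 ± 0.12 (-0.18 to 0.32; adjusted p = 0.614, limma) did not pass. With arrays centred on their medians it was called lower with both drugs, at -0.46 and -0.45, so that the nilotinib value turned its sign. The third PIK3R1 probe set, 212249_at, lay below the filter at means of 32.6 ± 9.92, 55.0 ± 21.0 and 75.0 ± 55.7.

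The disagreement within PIK3R1 can be read as a difference within each array. Log2(signal + 16) of 212240_s_at minus that of 212239_at was -1.32 ± 0.10 on DMSO arrays, -0.23 ± 0.22 on imatinib arrays and -0.18 ± 0.11 on nilotinib arrays (SD, n = 4). The shift from DMSO was 1.09 with imatinib and 1.14 with nilotinib, and between the drugs it was 0.05. This difference was chosen after the values had been seen and is given as a description, without a p-value.

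AKT1, the kinase that relays PI3K activity, did not pass the test with either drug. Probe set 207163_s_at gave 279, 366, 252 and 423 with DMSO, 391, 264, 447 and 376 with imatinib, and 306, 174, 378 and 429 with nilotinib. All 3 groups overlapped over most of their range. The log2 fold changes were 0.16 ± 0.24 (95% interval -0.34 to 0.66; adjusted p = 0.638, limma) and -0.08 ± 0.24 (-0.58 to 0.42; adjusted p = 0.804, limma), so that changes of up to these bounds are not excluded. With median centring the nilotinib value became -0.60 and was called (adjusted p = 0.0386, limma).

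AKT2, the second AKT kinase, was dim on its 3 probe sets. The group means for DMSO, imatinib and nilotinib were 57.6 ± 41.1, 66.2 ± 6.21 and 145 ± 84.0 on 203808_at, 20.8 ± 23.2, 32.9 ± 5.19 and 64.1 ± 63.3 on 203809_s_at, and 5.65 ± 2.45, 10.5 ± 3.24 and 14.0 ± 4.01 on 211453_s_at. The filter lay at a signal of about 80.6, by the mean over all 12 arrays. Without the filter none of the 3 was called in either comparison, the nearest being 203808_at with nilotinib at 1.22 ± 0.50 (adjusted p = 0.0583, limma). Over all 7 member probe sets below the filter, single signals ran from 3.29 to 91.0 on DMSO arrays, 7.45 to 124 on imatinib arrays and 9.79 to 255 on nilotinib arrays.

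TSC1, the stabilising partner in the complex that restrains RHEB, was higher with both drugs. Probe set 209390_at gave 479, 520, 368 and 428 with DMSO, 511, 540, 694 and 707 with imatinib, and 875, 865, 734 and 910 with nilotinib. The nilotinib arrays lay above all other arrays, while the lowest imatinib array (511) lay below the highest DMSO array (520). The log2 fold change was 0.90 ± 0.13 with nilotinib (adjusted p = 2.09e-05, limma), a 1.86-fold rise, and the call held under all 24 alternatives (0.38 to 0.97). With imatinib it was 0.43 ± 0.13 (adjusted p = 0.0167, limma), a 1.35-fold rise. The imatinib call was lost with median centring (0.21, adjusted p = 0.264) and without imatinib array 7 (adjusted p = 0.0599), imatinib array 8 (adjusted p = 0.0591) or DMSO array 11 (adjusted p = 0.0670), all by limma. Of all tested probe sets, 23.1% rose at least as far as TSC1 with imatinib and 15.0% with nilotinib.

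TSC2, the subunit that acts on RHEB, was dim and scattered. Probe set 215735_s_at gave 135, 107, 135 and 14.6 with DMSO, 27.8, 120, 186 and 196 with imatinib, and 99.6, 108, 123 and 115 with nilotinib. One DMSO and 1 imatinib array lay far below the others of their groups. The log2 fold changes of 0.39 ± 0.51 (95% interval -0.68 to 1.46; adjusted p = 0.590, limma) and 0.40 ± 0.51 (-0.67 to 1.47; adjusted p = 0.518, limma) did not pass, and without DMSO array 12 they were -0.16 and -0.15. The other TSC2 probe set, 215624_at, lay below the filter at means of 35.3 ± 23.0, 46.9 ± 23.8 and 55.5 ± 36.9.

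MTOR, the kinase at the centre of both mTOR complexes, did not pass with either drug. Probe set 202288_at gave 161, 183, 165 and 235 with DMSO, 137, 210, 187 and 212 with imatinib, and 237, 249, 226 and 299 with nilotinib. The nilotinib arrays lay above all imatinib arrays, and 1 DMSO array (235) reached into their range. The log2 fold change was 0.00 ± 0.19 with imatinib (95% interval -0.41 to 0.41; adjusted p = 0.997, limma) and 0.42 ± 0.19 with nilotinib (0.01 to 0.83; adjusted p = 0.0764, limma). The nilotinib value was called under 2 of 23 alternatives, without DMSO array 12 (0.53, adjusted p = 0.0433, limma) and with no variance trend (0.42, adjusted p = 0.0378, limma). With median centring it was -0.10. The other MTOR probe set, 215381_at, lay below the filter at means of 58.1 ± 9.14, 32.0 ± 29.1 and 78.2 ± 55.7.

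RPS6KB1, the kinase that mTORC1 activates to raise protein synthesis, was called higher with nilotinib on 1 of its 2 tested probe sets, and neither was called with imatinib. Probe set 204171_at gave 416, 249, 485 and 393 with DMSO, 450, 426, 540 and 382 with imatinib, and 457, 531, 465 and 613 with nilotinib. The groups overlapped, with the lowest signal on DMSO array 10. The log2 fold change was 0.24 ± 0.17 with imatinib (95% interval -0.13 to 0.61; adjusted p = 0.311, limma) and 0.43 ± 0.17 with nilotinib (adjusted p = 0.0425, limma). The nilotinib call held under 12 of 24 alternatives, with log2 fold changes from -0.09 under median centring to 0.55 and adjusted p up to 0.679. It was lost without nilotinib array 2 (0.42), nilotinib array 4 (0.35), DMSO array 10 (0.25) or DMSO array 12 (0.46), and with quantile normalization (0.27) or cyclic loess (0.28). Probe set 211578_s_at gave 197, 144, 172 and 181 with DMSO, 200, 135, 240 and 192 with imatinib, and 248, 136, 159 and 196 with nilotinib, and did not pass (0.12 ± 0.22 and 0.06 ± 0.22; adjusted p = 0.726 and 0.833, limma).

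**Figure D2:**
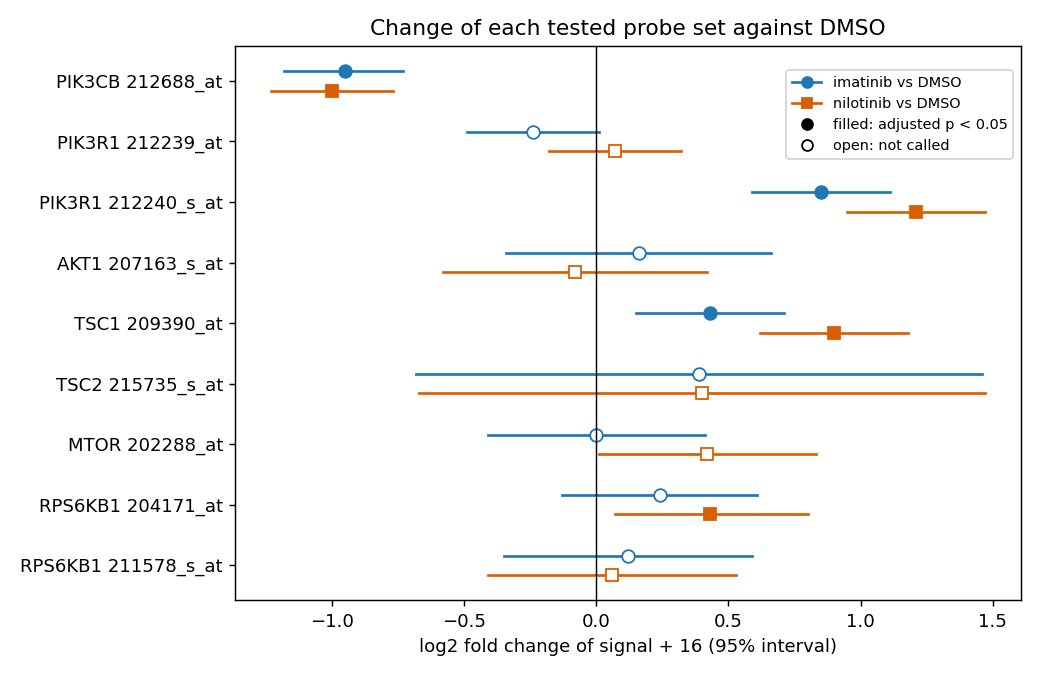
Log2 fold change of each of the 9 tested probe sets against DMSO for imatinib and nilotinib, with 95% intervals from limma and filled points for an adjusted p under 0.05. PIK3CB lies at the left with both drugs (-0.95 with imatinib), while the intervals of AKT1 and TSC2 span 0 in both comparisons.

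Between the drugs, which were given at different doses, 1 of the 9 probe sets was called, beside 11.5% of all tested probe sets (4.85% higher with nilotinib, 6.65% lower). TSC1 was 1.38-fold higher with nilotinib than with imatinib (0.47 ± 0.13; 95% interval 0.18 to 0.75; adjusted p = 0.0322, limma). That call held under 16 of 27 alternatives, from 0.17 to 0.71. Within the 4 arrays of high actin ratio the value was 0.71 (adjusted p = 0.0662) and within the nilotinib and imatinib arrays of low ratio 0.22 (adjusted p = 0.465), and with the ratio class as a block it was 0.47 (adjusted p = 0.0227), all by limma.

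PIK3CB did not pass between the drugs, at -0.05 (95% interval -0.28 to 0.18; adjusted p = 0.813, limma), and was at -0.34 with median centring (adjusted p = 0.0508, limma). Probe set 212240_s_at of PIK3R1 was higher on every nilotinib array than on any imatinib array, by 0.36 (0.10 to 0.62), and did not pass (adjusted p = 0.0691, limma). With median centring it was at 0.06. The other tested PIK3R1 probe set, 212239_at, was at 0.31 (0.06 to 0.56; adjusted p = 0.0927, limma), and at 0.02 with median centring. MTOR also had every nilotinib array above every imatinib array, at 0.42 (0.01 to 0.83; adjusted p = 0.164, limma), and was at 0.12 with median centring. TSC1, MTOR and PIK3R1 212240_s_at made 3 of 9 probe sets whose nilotinib and imatinib arrays did not overlap, beside 16.7% of all tested probe sets. AKT1 at -0.24 (-0.74 to 0.26), TSC2 at 0.01 (-1.06 to 1.08), RPS6KB1 204171_at at 0.20 (-0.17 to 0.56) and RPS6KB1 211578_s_at at -0.06 (-0.53 to 0.42) had intervals that include 0 and leave room for sizeable differences.

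**Figure D3:**
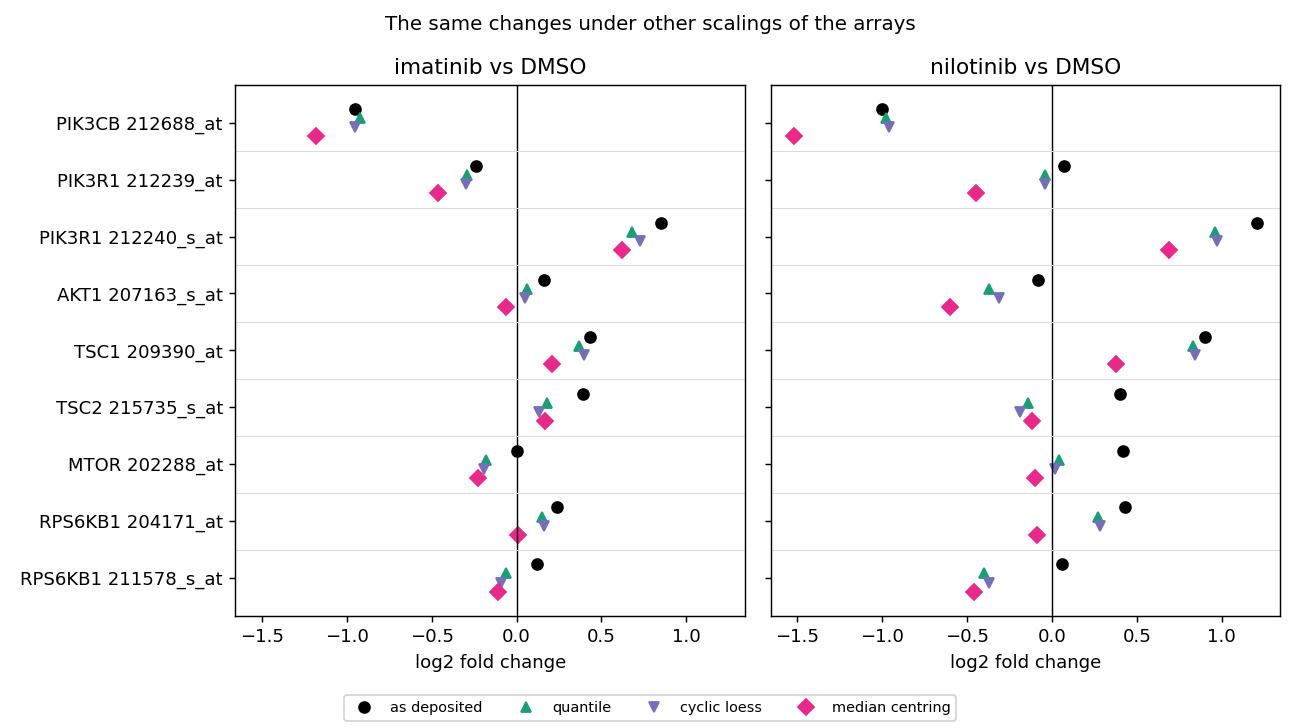
Log2 fold change of the 9 probe sets against DMSO as deposited and after quantile normalization, cyclic loess or centring of each array on its median. PIK3CB stays below 0 and PIK3R1 212240_s_at and TSC1 stay above 0 under all 4, while RPS6KB1 204171_at with nilotinib moves from 0.43 to -0.09 and PIK3R1 212239_at from 0.07 to -0.45 with median centring.

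For members whose brightest probe set was called with at least 1 drug, likeness was taken over the 12 arrays. The gene whose signal followed that of PIK3CB most closely was PSPH (Pearson r = 0.980 of log2 values), that for TSC1 was NOL3 (r = 0.965) and that for RPS6KB1 204171_at was ANXA2P1 (r = 0.945). The brightest PIK3R1 probe set, 212239_at, was not called, so PIK3R1 has no such value. These values describe 12 points in 3 groups and share array and treatment.

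Of 98 further pathway genes listed by role, 70 had a tested probe set, counting the brightest of each gene. With imatinib 19 rose, 9 fell and 42 did not pass, beside 38.2% of 8021 genes called (21.4% higher, 16.8% lower). With nilotinib 29 rose, 14 fell and 27 did not pass, beside 57.5% called (34.3% higher, 23.2% lower). The counts by list given below at the deposited scale are to be read against these same shares. The median log2 fold change of the 70 was 0.13 with imatinib and 0.28 with nilotinib, beside 0.09 and 0.15 over all genes. With median centring the counts became 7 higher and 13 lower, and 8 higher and 30 lower, so the balance of directions depends on the scaling. Over all 13329 tested probe sets that centring gave 1264 higher and 3468 lower with imatinib, and 1328 higher and 6208 lower with nilotinib. The median-centred counts by list are to be read against this shift of all probe sets. RPTOR and RICTOR were not analysed here.

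**Figure D4:**
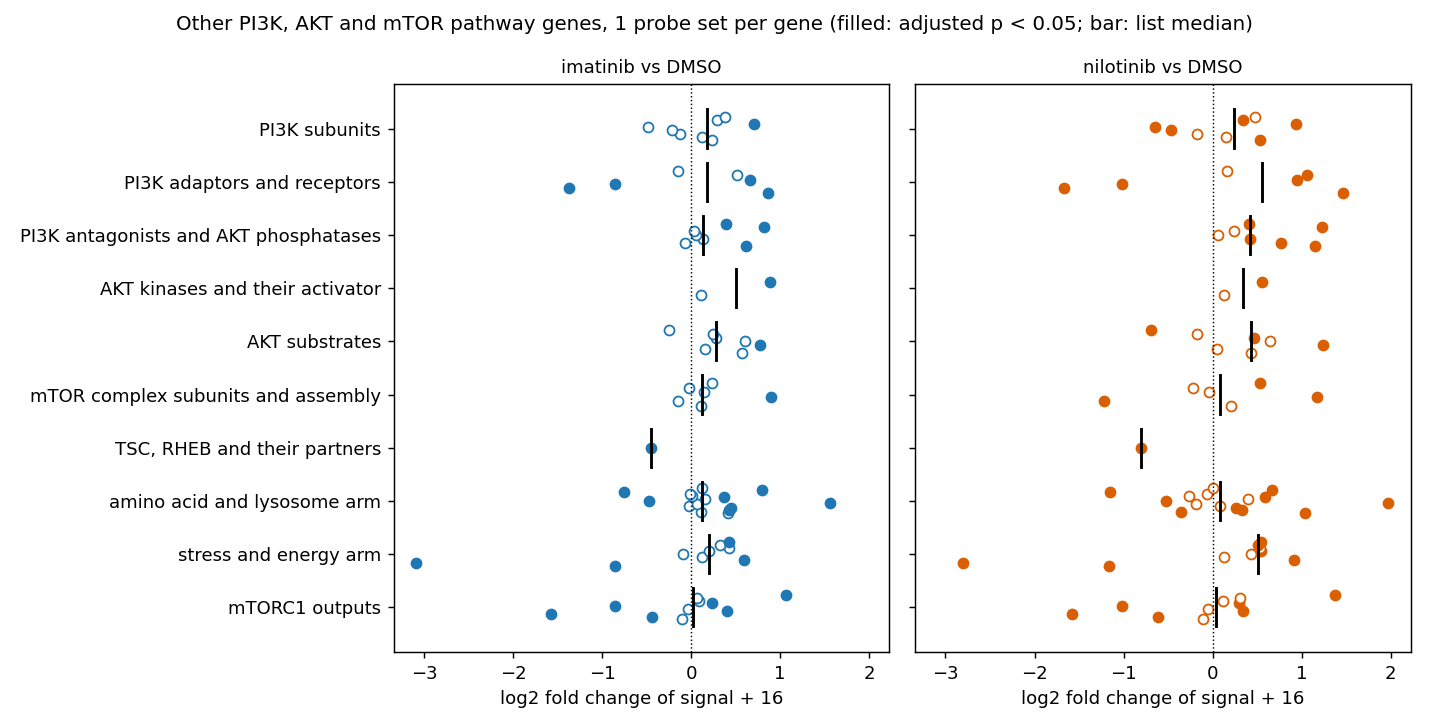
Log2 fold change of the tested pathway genes other than the members, by list, with filled points for an adjusted p under 0.05 in limma and a bar for the list median. DDIT4 at -3.09 with imatinib and -2.80 with nilotinib is the lowest point in each panel, and NPRL3 at 1.56 and 1.97 the highest.

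Among the other PI3K subunits, 1 of 8 tested genes rose with imatinib and none was called lower at the deposited scale, and 3 rose and 2 fell with nilotinib. With median centring 0 were higher and 2 lower with imatinib and 0 higher and 3 lower with nilotinib, and quantile normalization gave 0 higher and 1 lower with imatinib. PIK3R3, a further regulatory subunit, rose from 138 ± 31.4 to 235 ± 39.8 with imatinib and 276 ± 24.8 with nilotinib (0.71 ± 0.19 and 0.94 ± 0.19; adjusted p = 0.00775 and 5.62e-04, limma). With median centring neither PIK3R3 call held (0.49 and 0.42). PIK3C2A, a class II enzyme, rose with nilotinib (0.53 ± 0.11, adjusted p = 3.68e-04, limma), but was at 0.01 with median centring.

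Adaptors and receptors moved in both directions, with 2 of 6 higher and 2 lower with imatinib and 3 higher and 2 lower with nilotinib. With median centring 0 were higher and 2 lower with imatinib, and 1 higher and 2 lower with nilotinib. GAB2, an adaptor that links BCR-ABL1 to PI3K, fell from 1078 ± 90.8 to 415 ± 97.7 with imatinib and 417 ± 254 with nilotinib (-1.37 ± 0.41 and -1.67 ± 0.41; adjusted p = 0.0138 and 0.00221, limma). The GAB2 value with nilotinib was -1.03 without nilotinib array 2 and -0.81 without the 4 arrays of high actin ratio, and was called in both. The imatinib call was lost with no variance trend (adjusted p = 0.0544, limma). Its relative GAB1 rose from 78.2 ± 28.9 to 151 ± 29.5 and 244 ± 86.7 (0.86 ± 0.28 and 1.46 ± 0.28; adjusted p = 0.0237 and 3.10e-04, limma). The GAB1 mean with DMSO lay below the filter level of about 80.6, so that GAB1 passed the filter only through its treated arrays. The imatinib call of GAB1 was lost under 9 of 23 alternatives, among them without imatinib array 5 (0.84), imatinib array 7 (0.76), DMSO array 9 (0.79) or DMSO array 12 (0.68).

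Of 7 tested PI3K antagonists and AKT phosphatases, 3 rose with imatinib and 5 with nilotinib, and none was called lower at the deposited scale. Over all genes 38.2% were called with imatinib (21.4% higher) and 57.5% with nilotinib (34.3% higher). With median centring 1 was higher and 0 lower with imatinib, and 2 were higher and 1 lower with nilotinib. PIK3IP1, a membrane inhibitor of PI3K, rose from 125 ± 40.7 to 230 ± 48.0 and 306 ± 23.4 (0.82 ± 0.22 and 1.23 ± 0.22; adjusted p = 0.00582 and 1.14e-04, limma), on both of its tested probe sets. Without the 4 arrays of high actin ratio the imatinib value was 0.58 and did not pass (adjusted p = 0.115, limma). INPP4A, a lipid phosphatase, rose from 169 ± 19.9 to 267 ± 30.5 and 399 ± 89.4 (0.62 ± 0.18 and 1.15 ± 0.18; adjusted p = 0.0101 and 2.71e-05, limma), and its imatinib call was lost with quantile normalization (0.43) and median centring (0.39).

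Of the 2 tested kinases listed beside AKT, 1 rose with each drug, while with median centring 1 was higher with imatinib and 1 lower with nilotinib. SGK1, a kinase that shares substrates with AKT, rose from 470 ± 48.7 to 882 ± 75.0 with imatinib and 692 ± 57.1 with nilotinib (0.89 ± 0.11 and 0.55 ± 0.11; adjusted p = 3.36e-06 and 3.74e-04, limma), with the nilotinib value at 0.02 under median centring. PDPK1, the kinase that activates AKT, was at 0.11 and 0.13 on its brightest probe set and did not pass (adjusted p = 0.553 and 0.407, limma). The other of its 2 tested probe sets was called higher with nilotinib (0.94) and was not called with imatinib (0.23).

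Among AKT substrates, 1 of 7 rose with imatinib, and 2 rose and 1 fell with nilotinib. With median centring 1 was higher and 1 lower with imatinib, and 1 higher and 2 lower with nilotinib. FOXO3, a transcription factor that AKT keeps out of the nucleus, rose from 950 ± 120 to 1629 ± 175 and 2256 ± 172 (0.77 ± 0.10 and 1.24 ± 0.10; adjusted p = 8.42e-06 and 1.16e-08, limma). TBC1D4, a GTPase-activating protein, fell with nilotinib (-0.69 ± 0.15, adjusted p = 7.25e-04, limma) on 1 of its 2 tested probe sets.

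Of 6 mTOR complex subunits and assembly factors, 1 rose with imatinib, and 2 rose and 1 fell with nilotinib. With median centring 1 was higher with imatinib, and 1 higher and 3 lower with nilotinib. PRR5, a subunit of the second mTOR complex, rose from 208 ± 20.0 to 402 ± 50.8 and 488 ± 46.0 (0.90 ± 0.14 and 1.17 ± 0.14; adjusted p = 5.51e-05 and 1.58e-06, limma). Of the 2 tested PRR5 probe sets, 1 was called higher with imatinib and 2 with nilotinib. MLST8, a subunit of both complexes, was at 364 ± 46.1 with DMSO and 328 ± 59.6 with imatinib (-0.15 ± 0.30, adjusted p = 0.732, limma) and fell to 167 ± 91.9 with nilotinib (-1.22 ± 0.30, adjusted p = 0.00238, limma). RHEB, the direct activator of mTORC1 and the target of the TSC complex, fell from 7241 ± 438 to 5305 ± 557 and 4178 ± 549 (-0.45 ± 0.09 and -0.80 ± 0.09; adjusted p = 7.70e-04 and 1.01e-06, limma). That probe set is of a kind that can also bind other transcripts, and 2 of the 3 tested RHEB probe sets were lower with each drug.

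In the amino acid and lysosome arm, 5 of 15 tested genes rose and 2 fell with imatinib, and 6 rose and 3 fell with nilotinib. Centring arrays on their medians gave 2 higher and 2 lower with imatinib, and 2 higher and 9 lower with nilotinib. NPRL3, part of the complex that restrains mTORC1 when amino acids are scarce, rose from 381 ± 56.8 to 1168 ± 262 and 1540 ± 204 (1.56 ± 0.15 and 1.97 ± 0.15; adjusted p = 1.33e-07 and 3.41e-09, limma) on all 3 of its tested probe sets. SEH1L, of the complex that opposes it and of the nuclear pore, fell from 3274 ± 221 to 1947 ± 261 and 1463 ± 103 (-0.75 ± 0.09 and -1.15 ± 0.09; adjusted p = 2.95e-06 and 7.13e-09, limma).

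In the stress and energy arm, 2 of 9 rose and 2 fell with imatinib, and 4 rose and 2 fell with nilotinib. Centring arrays on their medians gave 0 higher and 2 lower with imatinib, and 0 higher and 3 lower with nilotinib. DDIT4, a stress-induced inhibitor that acts through TSC1 and TSC2, fell from 5050 ± 101 to 583 ± 92.0 and 716 ± 66.7 (-3.09 ± 0.10 and -2.80 ± 0.10; adjusted p = 1.04e-13 and 1.29e-13, limma). CAB39, a scaffold of the kinase STK11, fell from 3865 ± 149 to 2128 ± 103 and 1720 ± 103 (-0.86 ± 0.07 and -1.16 ± 0.07; adjusted p = 1.64e-08 and 1.34e-10, limma).

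Of 10 mTORC1 outputs, 3 rose and 3 fell with each drug. Among the lower genes, 1 is also in the list of adaptors and receptors and is counted as lower in both lists. Centring arrays on their medians gave 1 higher and 4 lower with imatinib, and 1 higher and 6 lower with nilotinib. EIF4EBP1, the translation repressor that mTORC1 inactivates, fell from 2157 ± 67.2 to 711 ± 78.2 and 712 ± 23.9 (-1.58 ± 0.09 with each drug; adjusted p = 1.20e-10 and 7.31e-11, limma). ULK1, a kinase that starts autophagy and is restrained by mTORC1, rose from 82.2 ± 25.8 to 190 ± 62.7 and 247 ± 89.4 (1.06 ± 0.30 and 1.38 ± 0.30; adjusted p = 0.00964 and 8.33e-04, limma), with the imatinib call lost under quantile normalization (0.82, adjusted p = 0.0685). The ULK1 mean with DMSO lay close to the filter level of about 80.6. RPS6KB2, the close relative of RPS6KB1, was at 0.07 and 0.31 and did not pass (adjusted p = 0.864 and 0.317, limma).

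Between the drugs, 2 of the 70 genes were higher with nilotinib and 6 lower, beside 12.5% of all genes called (5.06% higher, 7.39% lower). FOXO3 was the higher one among the genes named above (0.47, adjusted p = 0.00678, limma), and SGK1, MLST8, RHEB, SEH1L and CAB39 were the lower ones.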

How the data were processed

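Total RNA of 12 K562 arrays, 4 per group by the labels, was measured. The deposited values are linear intensity signals per probe set, which the authors computed with MAS5 (per the submitters' processing notes; its version is not given in the sources used here). Since MAS5 subtracts a background and applies 1 factor per array, dim probe sets are the least certain. All columns were mapped to a sample.

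Of 22277 probe sets, 62 controls were left out. Symbols came from the platform annotation, updated by gene identifier: 19064 probe sets named 1 gene, 1043 several and 2108 none. Signals were taken as log2(signal + 16), and 13329 probe sets with a mean at or above the 40th percentile were tested with limma 3.58.1 (R 4.3.3), 1 mean per group over all 12 arrays and a variance trend, with Benjamini-Hochberg adjustment within each comparison and calls at 0.05. The median SE of a log2 fold change was 0.159, and the number of arrays limits the precision. Pathway genes were read from the brightest probe set naming that gene alone, in the same fit. The script was tested on simulated data.

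The members and lists were chosen with earlier results of these data known. Named besides the members are up to 2 genes per list with the widest change among called genes without overlap, RHEB, RPTOR, RICTOR, PDPK1, DDIT4, EIF4EBP1 and RPS6KB2 (other genes that the rule names are not reported here), and, for each member whose brightest probe set was called, the gene with the highest Pearson r. Alternatives covered pseudocounts of 1 and 64, the filter, the scaling, 1 probe set per gene, the variance model, array weights, only the 2 groups compared, classes of actin ratio and each array left out. Promoter windows are from RefSeq (GRCh38.p14). Gene positions are left out because no build goes with the array annotation. Python 3.11.15 with matplotlib 3.10.9 made the figures.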

Additional observations from a re-analysis of the deposited data

Results flagged for a closer look

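The TSC2 probe set 215735_s_at had a signal of 14.6 on DMSO array 12, beside 107 to 135 on the other 3 DMSO arrays, and stood apart by Dixon's test; chance sets apart about 1 in 20 groups, and 1 of 48 groups of member probe sets was set apart.

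The drugs, which share the DMSO arrays and were given at different doses, differed in 7 results, given as log2 differences of nilotinib against imatinib with the adjusted p by limma. They are 1 of 9 member probe sets and 6 of the 8 pathway genes called among 70, while 11.5% of all probe sets and 12.5% of all genes were called. TSC1 was higher by 0.47 (adjusted p = 0.0322) and FOXO3 by 0.47 (adjusted p = 0.00678). Lower with nilotinib were SGK1 at -0.34 (adjusted p = 0.0481), MLST8 at -1.07 (adjusted p = 0.0301), RHEB at -0.35 (adjusted p = 0.0215), SEH1L at -0.40 (adjusted p = 0.00893) and CAB39 at -0.31 (adjusted p = 0.00872).

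With 1 array left out at a time, the calls of FOXO3, SEH1L and CAB39 were kept in all 12 cases (largest adjusted p 0.0279, 0.0340 and 0.0329, limma). That of RHEB was lost without nilotinib array 3 or 4 or imatinib array 6 or 8 (adjusted p up to 0.0735, limma). That of MLST8 was lost without nilotinib array 1 or 4 or imatinib array 6, 7 or 8 (adjusted p up to 0.0715, limma), and its value without nilotinib array 4 was -0.68. That of SGK1 was lost in 9 of the 12 cases, the exceptions being nilotinib array 4, imatinib array 7 and DMSO array 10 (adjusted p up to 0.134, limma). That of TSC1 was lost without nilotinib array 1, 2 or 4 or imatinib array 5 or 6.

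Other alternatives ended these calls too, with adjusted p by limma. The call of FOXO3 was lost with median centring (0.17, adjusted p = 0.289) and without the 4 arrays of high actin ratio (0.37, adjusted p = 0.128). The call of SEH1L was lost without these 4 arrays (-0.24, adjusted p = 0.169), as was that of CAB39 (-0.35, adjusted p = 0.0552), which was also lost with cyclic loess (-0.21, adjusted p = 0.0517). MLST8 (-1.48, adjusted p = 0.0620) and SGK1 (-0.19, adjusted p = 0.491) were lost without the 4 arrays as well. RHEB was lost with quantile normalization (-0.24, adjusted p = 0.0821), cyclic loess (-0.24, adjusted p = 0.0967) and no variance trend (adjusted p = 0.0772). MLST8 was also lost with no variance trend (adjusted p = 0.0737) and with only the 2 groups compared (adjusted p = 0.0677). SGK1 was lost in these 2 settings too, and with a pseudocount of 1, no filter or array weights (adjusted p up to 0.0891). Within either class of actin ratio, where fewer arrays enter, none of these 6 genes was called (adjusted p from 0.0583 for FOXO3 to 0.500 for SGK1, limma).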

How the results depend on the processing

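PIK3CB and PIK3R1 212240_s_at kept their direction and call with both drugs, and TSC1 with nilotinib, under each alternative run for them. Over 27 log2 fold changes of member probe sets and 660 alternative values, 584 kept their direction and side of the threshold, 26 lost a call, 5 gained one, 43 changed sign without a call and 2 reversed. Those 2 were PIK3R1 212239_at (-0.45, adjusted p = 0.00528, limma) and RPS6KB1 204171_at (-0.09, adjusted p = 0.679, limma) with nilotinib under median centring.

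Median centring moved the share of higher among called probe sets from 56.3% to 26.7% for imatinib, from 61.2% to 17.6% for nilotinib and from 42.2% to 2.84% between the drugs, and quantile normalization and cyclic loess moved that for nilotinib to 47.6% and 48.5%. With nilotinib, 4666 probe sets were called with 1 probe set per gene, where fewer were tested, beside 7395.

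Between the drugs, the number of member probe sets called by limma went from 1 to 0 under median centring (2 at an unadjusted p under 0.05), array weights (3), without the 4 arrays of high actin ratio (2), and within the high (1) and low (1) ratio classes. Leaving out 1 array at a time gave 0 to 1 members, 906 to 1426 probe sets and 5 to 9 pathway genes, lowest without imatinib array 6, beside 1, 1532 and 8. Median centring gave 4019 probe sets and 23 pathway genes. Without the 4 arrays the counts were 596 and 3, and within the ratio classes, which hold fewer arrays, 106 and 0 (high) and 233 and 0 (low), with 15 pathway genes at an unadjusted p under 0.05 in each. For the other changes the cause was not tested. No paired analysis was possible because the array numbers are unique and the groups share none. Dim probe sets near background, such as those of AKT2, limit what could be tested.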

Other observations

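The other 2 pathway genes that differed between the drugs were INPP5D and LAMTOR2, which fall outside the rule for named genes and were chosen after their values had been seen. INPP5D, a lipid phosphatase of blood cells that opposes PI3K, had signals of 192 ± 32.9 with DMSO, 182 ± 16.7 with imatinib and 338 ± 44.9 with nilotinib, and was higher with nilotinib than with imatinib by 0.84 (adjusted p = 0.00560, limma). LAMTOR2, a subunit of the lysosomal anchor of mTORC1, had signals of 1105 ± 134, 1195 ± 133 and 853 ± 67.3 and was lower with nilotinib by 0.47 on the log2 scale (adjusted p = 0.00751, limma). Within either class of actin ratio, where fewer arrays enter, neither gene was called. Other alternatives for these 2 genes are not reported here. The doses of the drugs differ.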
